A study of Rattus norvegicus with 6 samples.

Results

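The miRNAs described here are those that red blood cells are best known for, namely both arms of miR-144, both arms of miR-451 and miR-486. They were chosen by name, as every miRNA on the array whose name starts with rno-miR-144, rno-miR-451 or rno-miR-486, with no threshold on a measured value. They are 5 of the 758 miRNAs on the array, listed as rno-miR-144-3p, rno-miR-144-5p, rno-miR-451-3p, rno-miR-451-5p and rno-miR-486, the last without an arm. The question was how much signal of blood the heart tissue carried and whether that differed between the groups.

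The tissue came from male Sprague-Dawley rats. In the model group, the left anterior descending coronary artery was tied off to cause a myocardial infarction, and in the control group the thread was passed without being tied. All rats were anaesthetized with sodium pentobarbital and had their chest opened, and the hearts were taken 4 weeks later. Each group has 3 arrays, each with the RNA of 1 rat. The labels call the tissue myocardium in both groups, and the study's workflow places it in the marginal zone of the infarct, so that the model tissue can hold both surviving muscle and scar. No step to wash blood out of the hearts is described in the sources used here.

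MiR-144 and miR-451 are cut from a shared transcript that the transcription factor GATA1 switches on as red cells mature. MiR-451 is the best known miRNA that is made without Dicer, since its precursor is too short for that enzyme and is cut by Argonaute 2 instead, and it is among the most abundant miRNAs of circulating red cells. MiR-486 lies within the Ank1 gene and is made both in red cells and in striated muscle, the heart included, so that in heart tissue it has more than 1 source.

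The mature sequences are shown because the arms differ in detection and because their seeds, the stretch that pairs with target messages, set them apart from each other. Sequences are from RefSeq on the GRCr8 build of the rat genome, written 5′ to 3′, with the seed, bases 2 to 8, in capitals. By exact name, 4 of the 5 were found there, and miR-486, which the array lists without an arm, was not.
miR-451-5p: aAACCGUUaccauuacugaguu
miR-451-3p: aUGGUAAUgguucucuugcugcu
miR-144-3p: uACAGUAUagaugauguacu
miR-144-5p: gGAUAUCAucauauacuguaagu
All of them lie on the plus strand of chromosome 10, miR-144-5p at chr10:63459409-63459431, miR-144-3p at chr10:63459446-63459465, miR-451-5p at chr10:63459585-63459606 and miR-451-3p at chr10:63459612-63459634. None of the seeds was shared with another of the 724 mature rat sequences in that table. Bases 2 to 7 of miR-144-3p were shared with miR-101a-3p and miR-101b-3p, and those of miR-451-3p with miR-1193-5p.

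The precursors are printed whole because they differ in length and in the stretch between the arms. The 5′ arm is in capitals.
Mir144: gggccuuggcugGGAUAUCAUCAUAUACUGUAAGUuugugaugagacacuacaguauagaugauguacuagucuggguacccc
Mir451a: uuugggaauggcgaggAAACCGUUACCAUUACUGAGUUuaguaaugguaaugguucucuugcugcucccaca
The Mir144 hairpin has 83 bases with 14 bases between the arms, and the Mir451a hairpin has 72 bases with 5 bases between the arms. The hairpins are 89 bases apart. MiR-451-5p spans bases 17 to 38 of its hairpin, and the listed 3′ arm starts at base 44.

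MiR-451-5p and miR-486 were detected on all 6 arrays, and the other 3 arms on none. Each miRNA was read by 2 probes, each printed in 8 spots per array, and a probe was taken as detected when its signal was over 3 times its error. The signal is the background-subtracted brightness given by the scanner software, in its own units. For the 3 undetected arms, all 36 probe values were under that limit and 0 of 288 spots were well above background. Their signals lay between -0.333 and 2.02, where the limit of 3 errors stood between 2.16 and 2.91. The probe that came nearest was probe 2 of miR-144-5p, at 2.28 errors on control array 3. Its signal was 1.31, 1.54 and 2.02 across the control arrays, against 1.52, 0.681 and 0.674 across the model arrays, and values under the limit have no order. The 3 arms were therefore not detectable at this sensitivity, which differs from absent.

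MiR-451-5p, the defining marker of red cells, gave a total signal over both probes of 81.5, 74.7 and 97.1 for control rats and of 66.1, 69.5 and 70.9 for model rats. Before any scaling between arrays, all 3 model arrays thus lay under all 3 control arrays, and control array 3 stood above the rest. The mean of the control arrays was 84.5 ± 11.5 (SD, n = 3) and that of the model arrays 68.9 ± 2.45 (SD, n = 3). That difference was -0.29 on the log2 scale, with p = 0.10 in a two-sided exact permutation test, the smallest p that 3 arrays against 3 can give.

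MiR-486, the red cell and muscle miRNA, had a total signal of 201, 264 and 209 in control rats 1 to 3 and of 177, 148 and 170 in model rats 1 to 3. These groups did not overlap either, and here control array 2 was the highest. Control rats averaged 224.5 ± 34.2 (SD, n = 3) and model rats 164.8 ± 14.9 (SD, n = 3), a log2 difference of -0.44 before scaling (p = 0.10, exact permutation test). Among the 198 miRNAs detected on all arrays, 15, or 7.58%, had all model arrays under all control arrays before scaling, both of these among them.

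The probes of a miRNA moved together. The log2 difference between the groups before scaling was -0.29 for both probes of miR-451-5p and -0.44 for both probes of miR-486. The signal of probe 1 over probe 2 stayed between 0.382 and 0.416 over the 6 arrays for miR-451-5p and between 0.597 and 0.622 for miR-486. All 48 spots of each of these probes were well above background and 0 were saturated. Spots of a probe varied on an array with a CV of 2.45% to 10.6% for miR-451-5p and 2.48% to 5.05% for miR-486. Since both probes bind the same miRNA from the same RNA, they are not replicates of a rat.

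**Figure D1:**
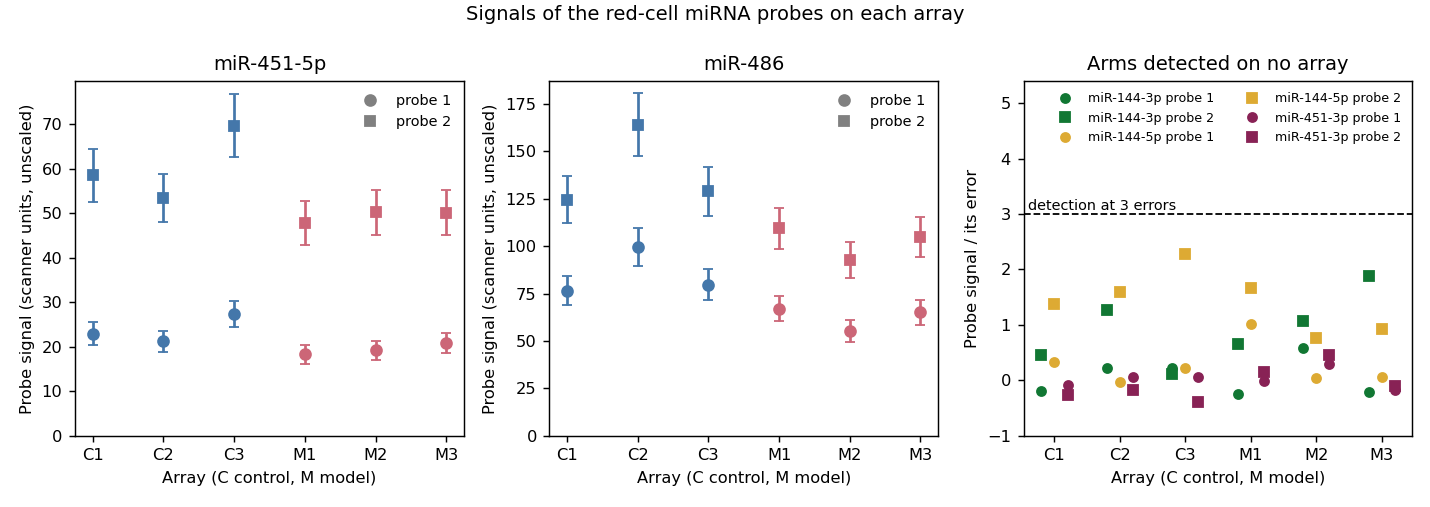
Signals of the probes on each array. The left and middle panels give the unscaled signal (scanner units) of both probes of miR-451-5p and miR-486 on the control (C1 to C3) and model (M1 to M3) arrays, with the software's error as bars, and the right panel gives signal over error of the 6 probes of the undetected arms. Both detected miRNAs have all model arrays under all control arrays for each probe, and every point on the right is under the dashed line at 3 errors.

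For the comparison across miRNAs, each array was divided by its 75th percentile over the 198 miRNAs detected on all arrays, and limma was fitted to the log2 values of the 214 miRNAs that all 3 arrays of a group detected, for either group. That percentile was 145.0, 189 and 145.5 across the control arrays, against 203, 193 and 168 across the model arrays, and model arrays 1 and 2 had the highest. After scaling, these 198 miRNAs had a median log2 fold change of -0.15, so values are also given relative to it. At an adjusted p under 0.05, 27 of the 214 miRNAs (12.6%) were lower in the model group and 22 (10.3%) were higher. The split depended on the scaling, with 47 of 66 calls lower when the percentile was taken over all miRNAs, 16 of 39 under quantile normalization, 16 of 46 when arrays were centred on their median deviation, and 0 of 19 without scaling, where limma gave 4 lower miRNAs an unadjusted p under 0.05.

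MiR-486 was lower in the model group. Its scaled log2 signal was 0.47, 0.48 and 0.52 for control rats and -0.20, -0.38 and 0.015 for model rats, so that the control arrays lay close together and every model array lay under them. The mean of the control arrays was 0.49 ± 0.026 (SD, n = 3) and that of the model arrays -0.19 ± 0.20 (SD, n = 3). The log2 fold change was -0.68 ± 0.11 (SE), with a 95% interval of -0.96 to -0.40, which is 37.6% lower, and the adjusted p from limma was 0.0132. Relative to the median miRNA the change was -0.53, and 11 of the 214 miRNAs had a lower fold change. The exact permutation test of its scaled values gave p = 0.10. The call was lost without control replicate 1 (adjusted p from limma 0.0623) and under 6 further settings, among them no scaling (0.265), the authors' normalized values (0.0506) and a block for slide row (0.0639).

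MiR-451-5p had lower values in the model group that did not pass the test. Its scaled log2 signal was -0.83, -1.34 and -0.58 in control rats 1 to 3 and -1.62, -1.47 and -1.25 in model rats 1 to 3. The groups now overlapped, because control array 2 lay under model array 3. Control rats averaged -0.92 ± 0.39 (SD, n = 3) and model rats -1.45 ± 0.19 (SD, n = 3). The log2 fold change was -0.53 ± 0.21 (SE) with a 95% interval of -1.06 to 0.0013, and the adjusted p from limma was 0.132. Relative to the median miRNA it was -0.38, and 25 of the 214 miRNAs had a lower fold change. The exact permutation test gave p = 0.20. Without control replicate 2 the log2 fold change was -0.75 with an adjusted p of 0.0495 in limma. With all arrays kept, it also passed under normexp background correction, at -0.34 with an adjusted p of 0.00366 in limma. Under that setting limma gave miR-451-5p and miR-486 the same SE, 0.10. This p thus rests on a spread pooled over miRNAs and does not measure that of miR-451-5p.

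After scaling, 66 of the 214 miRNAs, or 30.8%, had all model arrays under all control arrays, and miR-486 was among them. Before scaling, control array 2 held the lowest control signal of miR-451-5p and the highest control signal of miR-486. After scaling it stayed the lowest control array for miR-451-5p and lay between the other control arrays for miR-486. It also had the highest 75th percentile of the control arrays, and the part of that percentile in the result of miR-451-5p was not tested. In order of scaled miR-451-5p signal the arrays were control 3, control 1, model 3, control 2, model 2 and model 1, which is the reverse of their order by the percentile apart from control 1 and 3, whose percentiles were 145.0 and 145.5. In these bulk samples, fewer red cells, less of the miRNA in each and a change in other cells cannot be told apart. For miR-486 those other cells include muscle.

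**Figure D2:**
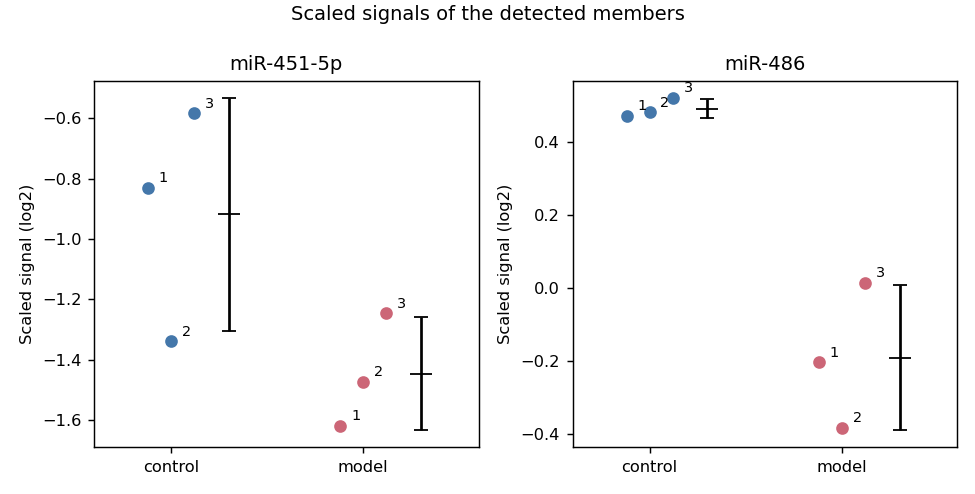
Scaled log2 signal of miR-451-5p and miR-486 on each array. Points are arrays with their replicate number, and the black mark and bar give the group mean and SD (n = 3). Control array 2 lies under model array 3 for miR-451-5p, and for miR-486 the control arrays lie between 0.47 and 0.52, above every model array.

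All 6 arrays share 1 slide and 1 scan. Row 1 of the slide held the 3 control arrays and model array 1, and row 2 held model arrays 2 and 3. Model array 1 was the lowest of row 1 for both miRNAs. With the row as a block the log2 fold change rests on that row alone, and was -0.70 for miR-451-5p (adjusted p from limma 0.212) and -0.69 for miR-486.

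Ratios of signals on the same array need no scaling. Each is given on the log2 scale relative to its mean in the control group, and 5 ratios were compared. MiR-451-5p over miR-486 was 0.11, -0.41 and 0.30 across the control arrays, against -0.0074, 0.32 and 0.15 across the model arrays. The difference was 0.15, with a 95% interval of -0.50 to 0.80 (exact permutation p = 0.60, adjusted 0.875). The interval is wide, so these arrays do not show whether the miRNAs changed alike.

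The ratio of miR-451 to miR-23a-3p is the usual gauge of haemolysis in plasma, since miR-23a is little affected by red cells. In this tissue miR-23a-3p had a log2 fold change of 0.19 ± 0.067 (SE), with an adjusted p of 0.105 in limma. Relative to the median miRNA its change was 0.34, and its scaled signal was higher on every model array than on any control array. The ratios to miR-23a-3p carry this difference of the reference too. MiR-451-5p over miR-23a-3p was lower on every model array than on any control array, with a difference of -0.72 and an interval of -1.47 to 0.033. For miR-486 over miR-23a-3p the difference was -0.87, with an interval of -1.19 to -0.55. Each had p = 0.10 in the exact permutation test, 0.25 when adjusted over the 5 ratios. The share of all miRNAs whose ratio to miR-23a-3p separates the groups in this way was not counted.

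Set against the muscle miRNA miR-133a-3p, a reference chosen after its values were seen, miR-486 had a ratio whose group means lay close together. MiR-486 over miR-133a-3p was 0.11, -0.11 and 0.0031 for control rats and -0.13, 0.13 and 0.0043 for model rats. The difference was 0.0022, with a 95% interval of -0.27 to 0.27 (exact permutation p = 0.90, adjusted 0.90). Of the 5 tested cardiomyocyte miRNAs, miR-133a-3p had the log2 fold change nearest to that of miR-486, -0.68 for both. A difference near 0 thus follows from the choice of reference, and its interval and p add no test of likeness. MiR-451-5p over miR-133a-3p differed by 0.16, with a wider interval of -0.71 to 1.02 (exact permutation p = 0.70, adjusted 0.875).

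**Figure D3:**
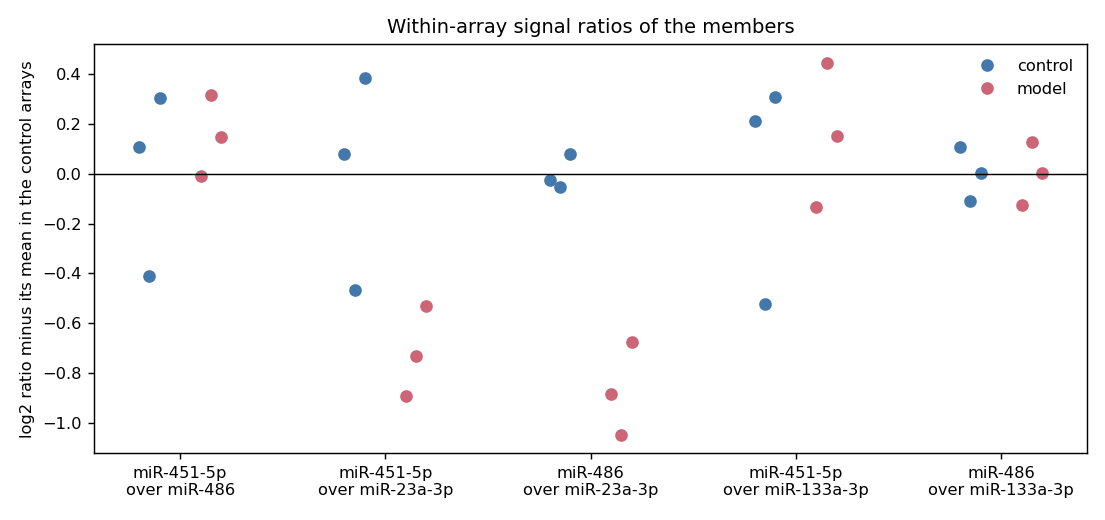
Within-array signal ratios on the log2 scale, minus the mean of the control arrays. Each point is an array. Both ratios to miR-23a-3p have all model arrays under all control arrays, the other 3 ratios overlap, and miR-486 over miR-133a-3p stays between -0.13 and 0.13. The scaled signal of miR-23a-3p itself was higher on every model array than on any control array.

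Of 11 other miRNAs abundant in red cells or reticulocytes, 7 were tested and 4 (miR-363-3p, miR-96-5p, miR-182 and miR-183-5p) were detected on no array. Of the 7, 1 was lower and 0 were higher, where 27 and 22 of all 214 were. The lower one was miR-92a-3p, with a log2 fold change of -0.37 ± 0.092 (SE) and an adjusted p of 0.0355 in limma. The median of the 7 was 0.0035, where that of all 214 miRNAs was -0.14. MiR-185-5p had -0.43 (adjusted p from limma 0.0913), and miR-16-5p, which is abundant in red cells and made in most tissues, had 0.069 (adjusted p 0.66). The summed scaled signal of the list was 7.49 to 8.41 on the control arrays and 7.44 to 8.79 on the model arrays, and miR-16-5p carried 59.2% to 63.2% of it. The summed scaled signal of miR-451-5p and miR-486 was 1.79 to 2.10 on the control arrays and 1.13 to 1.43 on the model arrays, with 68.0% to 77.9% of it from miR-486, and that of miR-451-5p alone overlapped between the groups.

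Of 6 leukocyte miRNAs, 5 were tested, 1 was lower and 1 was higher, where 12.6% and 10.3% of all tested miRNAs were. MiR-150-5p of mature lymphocytes was lower, at -0.60 ± 0.12 (SE, adjusted p from limma 0.0178). MiR-155-5p of activated immune cells was higher, at 1.07 ± 0.17 (SE, adjusted p 0.0127). The defining marker miR-142-3p had -0.073 with an adjusted p of 0.861, and miR-223-3p of myeloid cells had 0.15 with an adjusted p of 0.377. The summed scaled signal was 2.53 to 2.85 on the control arrays and 1.86 to 2.23 on the model arrays, and miR-150-5p carried 52.2% to 67.5% of it. Without miR-150-5p it was 0.835 to 0.971 and 0.773 to 0.973, which overlap. Of 3 miRNAs listed for platelets, 2 were tested, and only miR-126a-3p, which is also the defining marker of endothelium, passed the test. The other was miR-223-3p, given above. The summed scaled signal of the platelet list was 8.26 to 9.26 on the control arrays and 6.12 to 6.86 on the model arrays, but 94.2% to 96.8% of it was miR-126a-3p, and the rest was 0.290 to 0.31 and 0.28 to 0.372.

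Muscle and vessel markers that passed the test were lower, as miR-486 was. Of 6 cardiomyocyte miRNAs, 5 were tested, 3 were lower and 0 higher, where 12.6% and 10.3% of all tested miRNAs were. The median log2 fold change of the 5 was -0.72. MiR-1-3p was at -0.76, miR-133a-3p at -0.68 and miR-133b-3p at -0.72, with adjusted p from limma of 0.0203, 0.0297 and 0.0268. The defining marker miR-208a-3p had -0.87 (adjusted p 0.0988) and was detected on 5 of 6 arrays. The summed scaled signal of this list was 114 to 138 on the control arrays and 60.9 to 85.1 on the model arrays. Of that sum, miR-133b-3p carried 52.4% to 57.2%. Both endothelial miRNAs were lower, miR-126a-3p at -0.49 and miR-126a-5p at -0.59 (adjusted p from limma 0.0154 and 0.0132), with a summed scaled signal of 8.16 to 9.17 against 5.98 to 6.66. Without scaling between arrays none of these passed the test, since limma called no miRNA lower there.

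Of the 5 fibroblast or matrix miRNAs, 4 were higher and 0 lower, where 10.3% and 12.6% of all tested miRNAs were. They were miR-199a-5p at 1.95, miR-214-3p at 1.84, miR-199a-3p at 1.40 and miR-21-5p at the smallest rise of the 4, with adjusted p from limma of 0.0015 to 0.0104. The other, miR-29b-3p, had a log2 fold change of -0.17 (adjusted p from limma 0.257). The list had a summed scaled signal of 7.75 to 9.46 on the control arrays and 14.2 to 18.4 on the model arrays. Of that sum, miR-29b-3p carried 21.8% to 50.3%, and without it the sum was 3.85 to 4.74 and 10.2 to 14.4. The part of these other cells in the values of miR-486 and miR-451-5p was not tested.

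**Figure D4:**
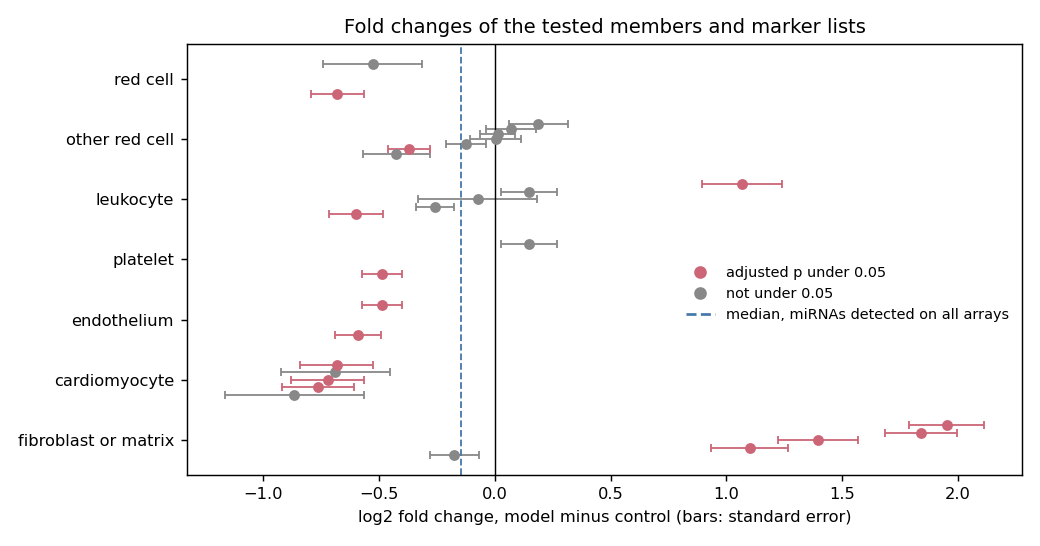
Log2 fold change of each tested miRNA, model minus control, by marker list, with its standard error as a bar. Filled red points passed an adjusted p of 0.05 in limma, grey points did not, and the dashed line is the median of -0.15 over the 198 miRNAs detected on all arrays. The red cell pair lies left of that line, near the cardiomyocyte and endothelial miRNAs, while most other red cell miRNAs lie to its right.

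By Pearson r of the scaled log2 signal over the 6 arrays, the miRNAs ranked nearest to miR-451-5p were not on the red cell lists. Among the 197 others detected on all arrays, the highest Pearson r was that of miR-3573-3p at 0.975, followed by miR-1188-3p at 0.972, miR-324-3p at 0.965, miR-483-3p at 0.956 and miR-1249 at 0.950. None of these 5 passed the test between the groups, and their log2 fold changes ran from -0.42 to -0.11. MiR-486 was in place 30, with r = 0.768. These correlations are a description over 6 arrays that fall into 2 groups, and every value on an array shares its divisor. All 5 had their highest scaled signals on control arrays 3 and 1, which had the lowest 75th percentiles. Their lowest was on model array 1, which had the highest percentile. Likeness of signal and the shared divisor therefore cannot be told apart in this ranking.

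The authors' own normalized log2 values had the same order of arrays in miR-486 apart from control arrays 1 and 2. For miR-451-5p they were 6.46, 6.08 and 7.01 in control rats 1 to 3 and 5.79, 5.92 and 6.12 in model rats 1 to 3, again with control array 2 under model array 3. For miR-486 they were 7.74, 7.68 and 7.90 across the control arrays, against 7.20, 7.01 and 7.46 across the model arrays, without overlap. The 3 undetected arms stood at the lowest value of each column.

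Across all settings tried, both miRNAs had a log2 fold change below 0. That of miR-451-5p ranged from -0.75 to -0.19 and passed the test in 2 of 22 alternatives. That of miR-486 ranged from -0.81 to -0.34 and passed in 15 of 22. Both counts include normexp, where the spread was pooled over miRNAs.

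**Figure D5:**
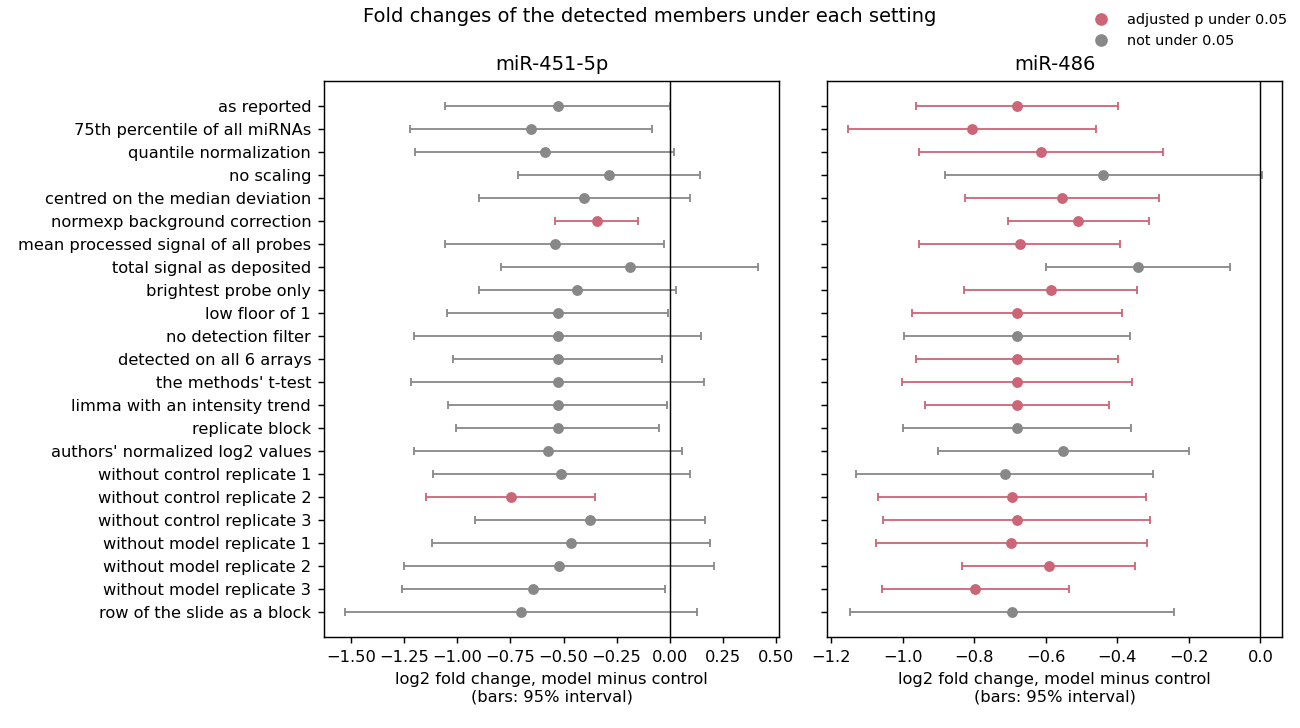
Log2 fold change of miR-451-5p and miR-486, model minus control, under each setting, with its 95% interval as a bar. Red points passed an adjusted p of 0.05. Every point is below 0, and the values of miR-486 passed in most settings where those of miR-451-5p did not.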

How the data were processed

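Total RNA of 3 control and 3 model rats was measured on 1-colour Agilent Rat miRNA arrays. Groups and replicate numbers were taken from the labels. The authors deposited spot-level intensity values of Agilent Feature Extraction 10.7.1.1, background-subtracted and not scaled between arrays, and a table of normalized log2 values whose method is not given in the sources used here. The number of arrays and the error of 7.29% to 7.98% on a detected total limit the precision.

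Probe signals over 3 times their error were summed per miRNA, since the total column deposited by the authors adds neighbouring miRNAs in places. For miR-451-5p and miR-486 both totals were equal (relative difference at most 4.79e-06). Each array's totals were scaled by their 75th percentile over the 198 miRNAs found on all arrays and floored at -6.50 (log2). The groups were compared over 214 miRNAs by lmFit and eBayes of limma 3.58.1 (R 4.3.3), without covariates, with Benjamini-Hochberg adjustment. The fit was tested on simulated data. Single values were compared by exact permutation tests in Python 3.11.15. Fold changes relative to the median miRNA subtract the median of the 198. RefSeq matures were matched by name.

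Named miRNAs are all members, the listed markers that passed the test or define a list, miR-23a-3p and the 5 most like miR-451-5p by Pearson r. MiR-185-5p, miR-16-5p, miR-223-3p, miR-29b-3p, the undetected list members and the ratios to miR-133a-3p were added after values were seen. The members and lists were chosen with earlier results of these data known. Alternatives were other scalings, background corrections, probe summaries, floors, filters and tests, a replicate block, the authors' values, a block for slide row (added after the values were seen) and leaving out each array.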

Additional observations from a re-analysis of the deposited data

How the results depend on the processing

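No alternative turned the direction of miR-451-5p or miR-486. MiR-451-5p passed the test under normexp background correction (-0.34, adjusted p from limma 0.00366), with a spread pooled over miRNAs. It also passed without control replicate 2, and its range was -0.75 to -0.38 when each array was left out in turn. MiR-486 did not pass without scaling (-0.44, adjusted p 0.265), with the totals as deposited (-0.34, 0.0806), without the detection filter (-0.68, 0.127), with the authors' values (-0.55, 0.0506), with the row as a block (-0.69, 0.0639) or with the replicate block (-0.68, 0.0501), and its range was -0.80 to -0.59 when each array was left out, with the call lost without control replicate 1. The cause was not tested. The number of miRNAs called was 49, against 19 without scaling, 9 without the filter, 26 by the methods' t-test, 29 with the row as a block and 16 with the replicate block. It was 14 to 39 when an array was left out, with 14, 26 and 27 without control replicates 1, 2 and 3, and 36 to 66 otherwise. With the totals as deposited, 1 of 36 calls was lower. Same-numbered arrays had correlations of -0.26, 0.0011 and 0.16 of their deviations from the group means. These give no sign that the numbers pair the samples, but with 3 arrays per group they cannot exclude it. A block for slide or scan was not run, since all arrays share 1 of each. With 3 arrays per group, the wide interval of miR-451-5p leaves both a clear drop and almost none possible, and arms under 3 errors have a limit but no level.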
